A study of Mus musculus with 13 samples.

Results

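The tricarboxylic acid (TCA) cycle genes and the genes through which pyruvate enters the cycle were examined in gluteal white adipose tissue (WAT), the fat over the hindquarters. They were taken by symbol as *Pdha1*, *Pcx*, *Cs*, *Idh3a*, *Idh2*, *Ogdh*, *Suclg1*, *Fh1* and *Mdh2*, which leaves out complex II. All 9 were found among the 34419 genes of the count table, and all 9 passed the filter on low counts. RNA was sequenced from 7 mice housed at 22°C (22°C replicates 1 to 7) and 6 mice housed at 29°C (29°C replicates 1 to 6) from birth to 13 weeks of age, to ask how cool housing, below the thermoneutral temperature of mice, alters fat. In both groups the mice were male C57BL/6J, lost their posterior hair to a depilatory after weaning, and lived singly on little bedding without nesting material, so hair loss and housing alone were shared by the 29°C mice. The RNA was total RNA of whole tissue, in which fewer cells of a type and less RNA per cell cannot be told apart.

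Pyruvate made by glycolysis is carried into mitochondria, where the pyruvate dehydrogenase (PDH) complex turns it into acetyl-CoA and pyruvate carboxylase turns it into oxaloacetate. Citrate synthase joins both products, and the cycle then oxidizes citrate to supply electrons to the respiratory chain. In fat cells, citrate can also leave mitochondria as the carbon source for fatty acid synthesis, and pyruvate carboxylase is abundant in adipocytes.

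Promoter sequences of 3 of these genes are given because *Cs* and *Fh1* varied together across mice whereas *Idh2* did not follow them, as described further on. Each is the 250 bases before the RefSeq transcript start, written 5′ to 3′ on the strand of the gene, in build GRCm38.p6. They lie at chr10:128337477-128337726 on the plus strand for *Cs*, chr1:175625636-175625885 on the minus strand for *Fh1* and chr7:80115351-80115600 on the minus strand for *Idh2*. Capitals mark a GC box (GGGCGG) or a CCAAT box (CCAAT) on either strand.
Cs promoter: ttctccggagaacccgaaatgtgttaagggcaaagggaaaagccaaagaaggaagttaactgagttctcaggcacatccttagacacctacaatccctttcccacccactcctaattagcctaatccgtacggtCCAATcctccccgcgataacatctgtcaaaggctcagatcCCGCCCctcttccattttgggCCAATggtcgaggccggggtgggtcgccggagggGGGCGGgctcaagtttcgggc
Fh1 promoter: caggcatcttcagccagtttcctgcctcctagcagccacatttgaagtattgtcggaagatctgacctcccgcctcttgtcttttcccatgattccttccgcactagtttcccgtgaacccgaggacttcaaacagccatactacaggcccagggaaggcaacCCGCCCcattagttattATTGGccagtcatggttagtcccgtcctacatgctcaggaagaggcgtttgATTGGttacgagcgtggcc
Idh2 promoter: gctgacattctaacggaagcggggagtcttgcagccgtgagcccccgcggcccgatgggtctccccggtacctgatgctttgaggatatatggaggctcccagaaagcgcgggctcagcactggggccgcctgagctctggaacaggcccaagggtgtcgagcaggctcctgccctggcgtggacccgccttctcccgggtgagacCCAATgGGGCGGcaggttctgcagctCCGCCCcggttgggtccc

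Promoters were held by the RefSeq table for 8 of the 9 genes. A GC box was present in 1 or more promoters of 6 of these 8 genes (*Cs*, *Fh1*, *Idh2*, *Mdh2*, *Ogdh* and *Pcx*) and a CCAAT box in those of 5 (*Cs*, *Fh1*, *Idh2*, *Ogdh* and *Pcx*). Counted the same way, 35.4% and 37.5% of all 27025 genes with promoters of this length held these motifs. The estrogen-related receptor motif TCAAGGTCA, its shorter form AAGGTCA, the palindromic NRF1 motif and the ETS motif CCGGAAGTG were in none of the 8 genes' windows on either strand, and in those of 0.422%, 4.70%, 0.877% and 1.6% of all genes. Both box motifs were thus found in *Idh2* as well as in *Cs* and *Fh1*.

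Total counts per library were between 22356637 and 25245785, and the 9 genes had between 1556 and 55087 counts in every library. By total, 5 libraries, all from 22°C, lay below the other 8, of which 2 were from 22°C. The 12 white adipocyte markers, led by *Cfd*, *Lpl* and *Fabp4*, made up 2.85% to 4.80% of counts at 22°C and 3.92% to 4.80% at 29°C. Skeletal muscle markers set some libraries apart. The 26 muscle markers, led by *Acta1*, *Myh4* and *Atp2a1*, took 6.98% of counts in 22°C replicate 1 and 9.54% in 22°C replicate 7. Their shares in the other 5 libraries at 22°C were between 0.112% and 1.84%, and those at 29°C were between 0.0162% and 0.907%. All 26 had higher fitted levels at 22°C, at a median of 3.16 on the log2 scale. Of the 26, 0 passed the threshold of P-adj below 0.1, while 18 (69.2%) had an unadjusted p below 0.05 (edgeR), against 18.5% of all genes. Because both libraries came from 22°C, results are also given without them. *Ucp1*, the uncoupling protein of brown fat, had at most 7 counts in a library and was at 0 in 10 of 13. It was 1 of 13 brown and beige fat markers, of which 11 were tested and 3 were called higher at 22°C, as given further on.

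None of the 9 genes differed between temperatures at P-adj below 0.1 in edgeR's quasi-likelihood test on counts, with Benjamini-Hochberg adjustment over all genes tested. For comparison, 345 of 17779 genes tested passed, or 1.94% (0.731% higher and 1.21% lower at 22°C). None of the 9 had an unadjusted p below 0.05 (18.5% of all genes did, 10.3% of all being higher at 22°C), and the 2 temperature groups overlapped for each of the 9 (they did not overlap for 1.24% of all genes). Fitted levels were higher at 22°C for 8 of the 9 genes, 7 of 9 when libraries were scaled by their totals alone, against 51.6% of all genes. On the log2 scale, the median fold change of the 9 was 0.23, against 0.0074 over all genes tested. DESeq2, which called 1676 of 16388 genes (10.2%), and limma on the authors' log2 values, which called 356 of 17779 (2%), also called 0 of the 9. Levels are counts scaled to library size with TMM factors (CPM), given as mean ± SD with 7 mice at 22°C and 6 at 29°C. Log2 fold changes (log2FC) are 22°C relative to 29°C, with their standard error (SE) and the P-adj from edgeR.

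**Figure D1:**
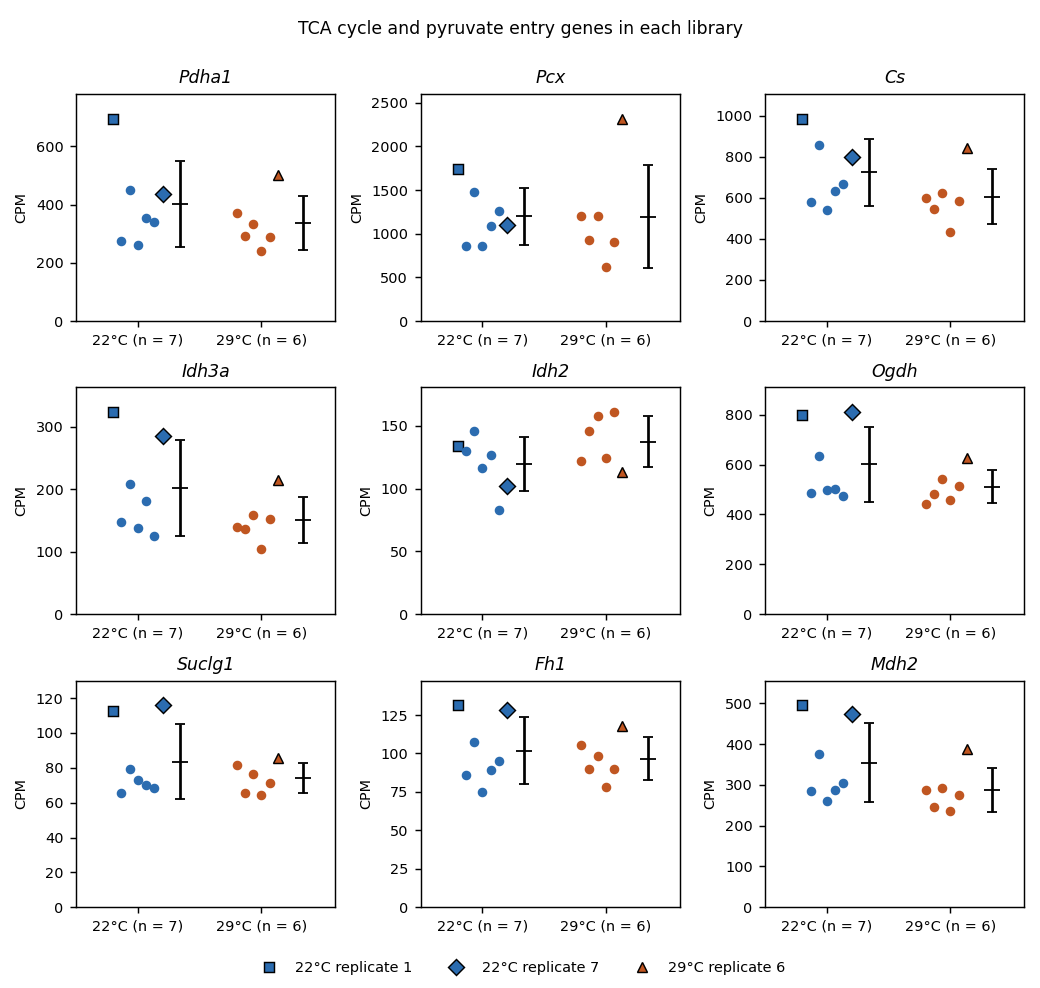
CPM of the 9 genes (y axis, CPM, from 0) in each library (points) at 22°C and 29°C, with the mean and SD of each group as a black bar beside the points; 22°C replicates 1 and 7 and 29°C replicate 6 have their own symbols. The groups overlap in every panel, and these 3 libraries hold the 3 highest values of *Idh3a*, *Suclg1*, *Fh1* and *Mdh2*.

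Pyruvate feeds both substrates of citrate synthase. *Pdha1* (ENSMUSG00000031299.11) encodes the catalytic E1α subunit of PDH, which commits pyruvate to acetyl-CoA. It was between 260 and 696 CPM at 22°C (median 354) and between 241 and 503 CPM at 29°C (median 313). The highest value at 22°C was that of replicate 1, and the highest at 29°C was that of replicate 6. Its mean was 401 ± 148 CPM at 22°C and 338 ± 92.1 CPM at 29°C, a log2FC of 0.25 (SE 0.23; P-adj = 0.606). Exons of *Pdha1* overlap those of *Map3k15* on the other strand, which had 39834 counts in all against 114184 for *Pdha1*. The strand setting of the counting is not given in the sources used here, so reads of these 2 genes cannot be told apart with certainty.

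*Pcx* (ENSMUSG00000024892.18) encodes pyruvate carboxylase, which refills oxaloacetate. It was between 855 and 1741 CPM at 22°C (median 1102) and between 621 and 2319 CPM at 29°C (median 1063). Both the lowest and the highest level of the 13 libraries were thus at 29°C, in replicates 4 and 6. Its means were 1198 ± 324 and 1197 ± 591 CPM, with a log2FC of 0.0014 (SE 0.27; P-adj = 0.998) whose 95% interval ran from -0.58 to 0.58. Without 29°C replicate 6 the log2FC was 0.30 (P-adj = 0.489, edgeR), and without 29°C replicate 4 it was -0.13 (P-adj = 0.831, edgeR).

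*Cs* (ENSMUSG00000005683.9), citrate synthase, opens the cycle and is often used as a measure of mitochondrial content. It was between 542 and 987 CPM at 22°C (median 668) and between 433 and 844 CPM at 29°C (median 592). At 22°C, replicates 1, 3 and 7 lay above the others, and at 29°C replicate 6 did. Means of 724 ± 162 and 605 ± 135 CPM gave a log2FC of 0.26 (SE 0.17; P-adj = 0.435).

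The isocitrate step is carried out in mitochondria by NAD-linked and NADP-linked enzymes, and their genes had fitted changes of opposite sign. *Idh3a* (ENSMUSG00000032279.12) encodes the catalytic subunit of the NAD-linked enzyme of the cycle itself. It was between 124 and 324 CPM at 22°C (median 181) and between 105 and 214 CPM at 29°C (median 146). In 22°C replicates 1 and 7 it was 324 and 285 CPM, above every other library. Its means were 202 ± 76.8 and 151 ± 36.2 CPM. The log2FC of 0.42 (SE 0.23; P-adj = 0.364) was the largest of the 9, with a 95% interval from -0.09 to 0.92.

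*Idh2* (ENSMUSG00000030541.17) encodes the NADP-linked mitochondrial enzyme, which supplies NADPH. It was 134, 130, 146, 116, 127, 83.0 and 102 CPM in 22°C replicates 1 to 7. In 29°C replicates 1 to 6 it was 122, 146, 158, 124, 161 and 114 CPM. The 2 lowest libraries were 22°C replicates 6 and 7 and the 2 highest were 29°C replicates 5 and 3, and 1 of 7 mice at 22°C exceeded the median of the 29°C mice. *Idh2* was the member with a lower mean at 22°C, 120 ± 21.4 against 137 ± 20.3 CPM, and its log2FC was -0.20 (SE 0.13; P-adj = 0.435). Among the 8 libraries with higher totals, 2 of them from 22°C, it was -0.58 (SE 0.17; unadjusted p = 0.00806 and P-adj = 0.269, edgeR). Those 2 were 22°C replicates 6 and 7, the same libraries that were lowest for *Idh2*, so this value depends on which mice were kept.

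*Ogdh* (ENSMUSG00000020456.18) encodes the E1 subunit of 2-oxoglutarate dehydrogenase, which releases carbon dioxide and yields succinyl-CoA. It was between 473 and 812 CPM at 22°C (median 503) and between 441 and 625 CPM at 29°C (median 499). The 2 medians were close, and 22°C replicates 1 and 7 held the 2 highest values. Means of 600 ± 149 and 511 ± 67.3 CPM gave a log2FC of 0.23 (SE 0.15; P-adj = 0.442).

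*Suclg1* (ENSMUSG00000052738.15) encodes the α subunit of succinyl-CoA ligase, the step that makes a nucleoside triphosphate directly. It was between 65.7 and 116 CPM at 22°C (median 72.7) and between 64.4 and 85.4 CPM at 29°C (median 74.0). The median was therefore lower at 22°C while the mean was higher, 83.5 ± 21.5 against 74.1 ± 8.53 CPM. In 22°C replicates 7 and 1 it was 116 and 113 CPM, and all other libraries were at or below 85.4 CPM. Its log2FC was 0.17 (SE 0.15; P-adj = 0.569).

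*Fh1* (ENSMUSG00000026526.15) encodes fumarase, which hydrates fumarate to malate. It was between 75.3 and 132 CPM at 22°C (median 95.4) and between 78.0 and 118 CPM at 29°C (median 94.1). Apart from *Pcx*, it had the smallest fitted difference, with means of 102 ± 21.5 and 96.5 ± 13.9 CPM and a log2FC of 0.08 (SE 0.14; P-adj = 0.800). *Mdh2* (ENSMUSG00000019179.11) encodes mitochondrial malate dehydrogenase, which closes the cycle by restoring oxaloacetate. It was between 260 and 496 CPM at 22°C (median 304) and between 235 and 388 CPM at 29°C (median 282). In 6 of 7 mice at 22°C it was above the median of the 29°C mice. Means of 354 ± 96.4 and 287 ± 54.4 CPM gave a log2FC of 0.30 (SE 0.17; P-adj = 0.374).

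Compared per kilobase of exons, mean levels over the 13 libraries followed the order *Pcx* (252 CPM per kb), *Cs* (116), *Ogdh* (102), *Pdha1* (99.7), *Mdh2* (90.8), *Idh2* (49.4), *Idh3a* (35.1), *Fh1* (29.3) and *Suclg1* (17.2). *Pcx* was above *Cs*, *Mdh2* above *Idh2*, and *Fh1* above *Suclg1* in all 13 libraries. The neighbours *Ogdh* and *Pdha1* could not be ordered (7 of 13 libraries), nor could *Pdha1* and *Mdh2* (8 of 13). *Cs* exceeded *Ogdh* and *Idh2* exceeded *Idh3a* in 11 of 13 libraries each, and *Idh3a* exceeded *Fh1* in 10 of 13. Exonic lengths came from an annotation of another build than the counts, so this order is approximate.

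The 2 libraries with the largest muscle marker shares were also among those with the highest levels of the 9 genes. Averaged as log2 CPM centred on each gene's mean, the 9 genes were highest in 22°C replicate 1 (0.60), followed by 22°C replicate 7 (0.35) and 29°C replicate 6 (0.33), and lowest in 29°C replicate 4 (-0.45). The first 2 of these libraries had the 2 largest muscle marker shares of counts, and 29°C replicate 6 had the smallest, 0.0162%. Without 22°C replicates 1 and 7, a choice made after the data were seen, fitted levels were higher at 22°C for 4 of 9 genes with a median of -0.014, and 0 of the 9 passed. The positive changes were then 0.11 for *Cs*, 0.084 for *Idh3a*, 0.069 for *Mdh2* and 0.018 for *Ogdh*. With the muscle score (mean log2 CPM of the 26 markers) as a covariate over all 13 libraries, the median was 0.23, 8 of 9 were higher, and the lowest P-adj was 0.612 (edgeR). That fit takes 1 slope for both temperatures, whereas the score was related to most of the 9 genes with opposite signs at 22°C and 29°C, as given below. Its median therefore cannot be read as the difference without muscle. Values of other genes given further on with this covariate also come from fits with 1 slope. The part of muscle in any of these levels was not tested.

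**Figure D2:**
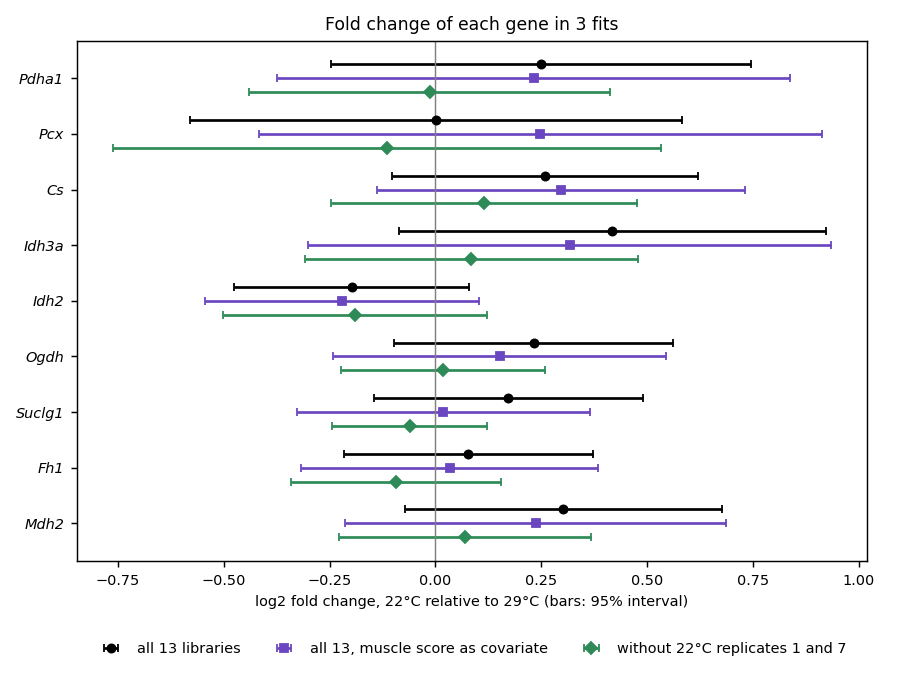
Log2 fold change of each gene at 22°C relative to 29°C (x axis, bars are 95% intervals) in 3 edgeR fits: all 13 libraries (circles), all 13 with the muscle score as a covariate (squares), and 11 libraries without 22°C replicates 1 and 7 (diamonds). Every interval includes 0, and the diamonds lie nearer to 0 than the circles for 7 of the 9 genes, the exceptions being *Pcx* and *Fh1*.

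The muscle score was also compared with each gene across mice. Over the 13 libraries, Pearson's r ran from -0.26 for *Pcx* to 0.50 for *Suclg1*, and Spearman's rho from -0.20 to 0.34. None of the 9 relations passed (permutation test with 100000 resamples, two-sided, P-adj between 0.632 and 0.719 for r, and 0.993 for every rho, adjusted over 9). Without the 2 libraries farthest from the median score, r was between -0.37 and 0.65. Within temperatures the signs were mostly opposed. For the 8 genes other than *Idh2*, r was between 0.06 and 0.78 at 22°C and between -0.78 and -0.28 at 29°C. For *Idh2*, it was -0.02 at 22°C and 0.31 at 29°C. At 22°C, the averaged level of the 9 genes was highest in replicates 1 and 7, which had the highest muscle scores. At 29°C, it was highest in replicate 6, which had the lowest score. How far the opposed signs rest on these libraries was not tested. Within the 8 libraries with higher totals r was between -0.49 and 0.46, and the 5 libraries with lower totals were too few for a correlation.

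Across mice, 8 of the 9 genes varied together, and *Idh2* did not follow them. Levels in 1 library share its scaling and its mixture of cells. For the 28 pairs among the 8 genes, r of log2 CPM over the 13 libraries was between 0.56 and 0.95 and rho between 0.46 and 0.95, and 26 of 28 pairs passed at P-adj below 0.05 by each measure (permutation test, two-sided, adjusted over 36 pairs). The pairs that missed the threshold for r were *Ogdh* and *Suclg1*, each with *Pcx* (P-adj = 0.0581 for both, permutation test). The range of r for these 28 pairs was 0.53 to 0.98 within 22°C, 0.52 to 0.99 within 29°C, 0.37 to 0.95 in the 8 libraries with higher totals, and 0.59 to 0.94 without the 2 libraries farthest from the median of the first gene. The closest pair was *Cs* and *Pdha1*, with r = 0.95 and rho = 0.94 over the 13 libraries (P-adj = 9e-05 and 0.00018, permutation test). Their unadjusted p of 1e-05 was the smallest that 100000 permutations can give.

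For the 8 pairs that include *Idh2*, r was between -0.21 and 0.02 and rho between -0.23 and 0.18. None passed the threshold (P-adj between 0.617 and 0.942 for r, permutation test). Within 22°C, r of these pairs was between 0.04 and 0.36, within 29°C between -0.48 and -0.04, in the libraries with higher totals between -0.48 and -0.16, and without the 2 farthest libraries between -0.40 and 0.26. Whether these correlations differ from those of the other pairs was not tested.

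**Figure D3:**
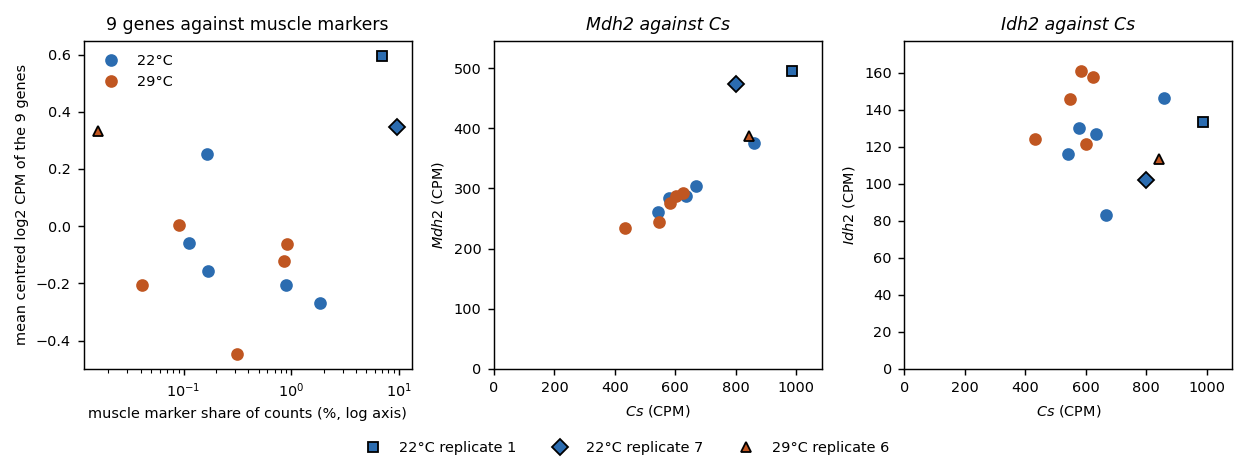
Left, the mean centred log2 CPM of the 9 genes (y axis) against the share of counts taken by 26 muscle markers (x axis, %, log scale); middle and right, CPM of *Mdh2* and *Idh2* (y axes) against CPM of *Cs* (x axis), 1 point per library, blue at 22°C and orange at 29°C. 22°C replicates 1 and 7 stand high at large muscle shares while 29°C replicate 6 stands high at the smallest share, and *Mdh2* climbs with *Cs* whereas *Idh2* does not.

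Among genes in none of the lists used here, the 5 whose log2 CPM followed the averaged level of the 9 genes most closely over the 13 libraries were *Atp5b* (r = 0.97), *Immt* (0.97), *Uqcrc2* (0.96), *Atp5a1* (0.96) and *Pnpla8* (0.96). They were selected as the highest r of all genes tested, and no p is given. Their mean levels were 1417, 219, 196, 839 and 155 CPM.

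Ratios of pairs of genes within a library, which do not depend on library scaling, were compared for 4 pairs with exact permutation tests (two-sided, 1716 splits of the 13 mice, adjusted over the 4). The *Idh2* to *Idh3a* ratio had a mean log2 of -0.69 ± 0.50 at 22°C and -0.11 ± 0.42 at 29°C. It ran from -1.48 to -0.18 at 22°C and from -0.91 to 0.25 at 29°C, and the lowest values were those of 22°C replicates 7 and 1 and 29°C replicate 6. The difference of -0.57 did not pass (exact permutation p = 0.0519, P-adj = 0.207). Without 29°C replicate 6 the difference was -0.73 and passed (exact permutation p = 0.0101, P-adj = 0.0404). When other mice were left out singly, and without 22°C replicates 1 and 7 together (-0.30, exact permutation p = 0.186), it did not pass.

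The *Pcx* to *Pdha1* ratio, which sets the carboxylase beside the dehydrogenase, had a mean log2 of 1.61 ± 0.21 at 22°C and 1.74 ± 0.28 at 29°C (difference -0.13, exact permutation p = 0.358, P-adj = 0.495). *Ogdh* to *Cs*, 2 steps of the cycle, differed by -0.05 (exact permutation p = 0.628). *Pdk4* to *Pdha1*, a kinase and its substrate, differed by 0.36 (exact permutation p = 0.371, P-adj = 0.495), with a wider range at 22°C, from -4.54 to -1.95, than at 29°C, from -4.18 to -3.05.

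Other genes for enzymes of the cycle or for parts of their complexes were listed as *Idh3b*, *Idh3g*, *Dlst*, *Dld*, *Sucla2*, *Suclg2* and *Mrps36*. None of the 7 passed the threshold, fitted levels of all 7 were higher at 22°C in each scaling tried, and the median log2FC was 0.21, or 0.048 with 5 of 7 higher without 22°C replicates 1 and 7. In the libraries with higher totals, 6 of 7 were higher. The most abundant were *Dlst*, *Idh3g* and *Idh3b*. *Idh3b*, like *Idh3g* a further subunit of the NAD-linked isocitrate dehydrogenase, was between 156 and 260 CPM at 22°C (median 162) and between 124 and 185 CPM at 29°C (median 152). Its level was highest in 22°C replicates 1 and 7, and its log2FC was 0.30 (SE 0.14; P-adj = 0.270), or 0.10 without these 2 libraries. *Idh3g* was between 181 and 254 CPM at 22°C and between 146 and 215 CPM at 29°C, with a log2FC of 0.24 (SE 0.10; P-adj = 0.241). *Dlst*, the E2 subunit that acts with *Ogdh*, had a log2FC of 0.12 (SE 0.10; P-adj = 0.587).

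Genes that import pyruvate and build or control PDH were examined next, as *Mpc1*, *Mpc2*, *Pdhb*, *Pdhx*, *Dlat*, *Pdk1*, *Pdk2*, *Pdk3*, *Pdk4*, *Pdp1*, *Pdp2* and *Pdpr*. None of the 12 passed in edgeR. Fitted levels of 10 of 12 were higher at 22°C, the median log2FC was 0.37, and 6 had an unadjusted p below 0.05, as 18.5% of all genes did. Without 22°C replicates 1 and 7 the median was 0.13 and only *Pdk2* of the 12 had such a p (0.0463, edgeR model across all genes), and with the muscle score as a covariate only *Mpc1* did (0.0498, edgeR). *Mpc1* and *Mpc2* encode the mitochondrial pyruvate carrier. *Mpc1* was between 91.9 and 221 CPM at 22°C (median 128) and between 60.5 and 148 CPM at 29°C (median 84.1), highest in 22°C replicate 1 and 29°C replicate 6. Its log2FC was 0.53 (SE 0.22; P-adj = 0.222), 0.33 without 22°C replicates 1 and 7 and 0.57 with the muscle score as a covariate. *Mpc2* had a log2FC of 0.37 (SE 0.24; P-adj = 0.431).

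Kinases that phosphorylate and inactivate PDH differed among themselves in sign. *Pdk2* was between 110 and 354 CPM at 22°C (median 141) and between 94.5 and 140 CPM at 29°C (median 111). In 22°C replicates 7 and 1 it was 354 and 259 CPM, above all others, and its log2FC was 0.70 (SE 0.25; P-adj = 0.187), or 0.25 without these 2 libraries. *Pdk4*, an isoform that rises in fasting and is abundant in muscle, was between 14.5 and 85.3 CPM at 22°C (median 31.2) and between 20.6 and 32.6 CPM at 29°C (median 28.3). Both its extremes were at 22°C, and 22°C replicates 1, 4 and 7, which had the 3 largest muscle shares, stood above all other mice. Its log2FC was 0.78 (SE 0.34; P-adj = 0.239), 0.36 without 22°C replicates 1 and 7, and 0.22 with the muscle score as a covariate. The part of muscle in the level of *Pdk4* was not tested.

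DESeq2 called 3 of these 12 genes, *Pdk2* (log2FC 0.70, P-adj = 0.0701), *Pdk3* (-0.41, P-adj = 0.0933) and *Pdp1* (0.57, P-adj = 0.0858), where *Pdp1* encodes the phosphatase that reactivates PDH. *Pdk3* and *Pdp1* are named here because of these calls, after their values were seen. That test called 10.2% of all genes. *Pdp1* was highest in 22°C replicates 7 and 1, at 34.9 and 31.5 CPM, and its log2FC was 0.22 without them and 0.17 with the muscle score as a covariate (edgeR). *Pdk3* was between 8.22 and 15.6 CPM at 22°C and between 11.02 and 17.5 CPM at 29°C. Of its 7 values at 22°C, the lowest were those of replicates 1 and 7, and without them its log2FC was -0.29 (P-adj = 0.379, edgeR). *Pdhb* and *Dlat*, the E1β and E2 subunits of the PDH complex, had log2FC values of 0.26 (SE 0.26; P-adj = 0.634) and 0.29 (SE 0.18; P-adj = 0.431).

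**Figure D4:**
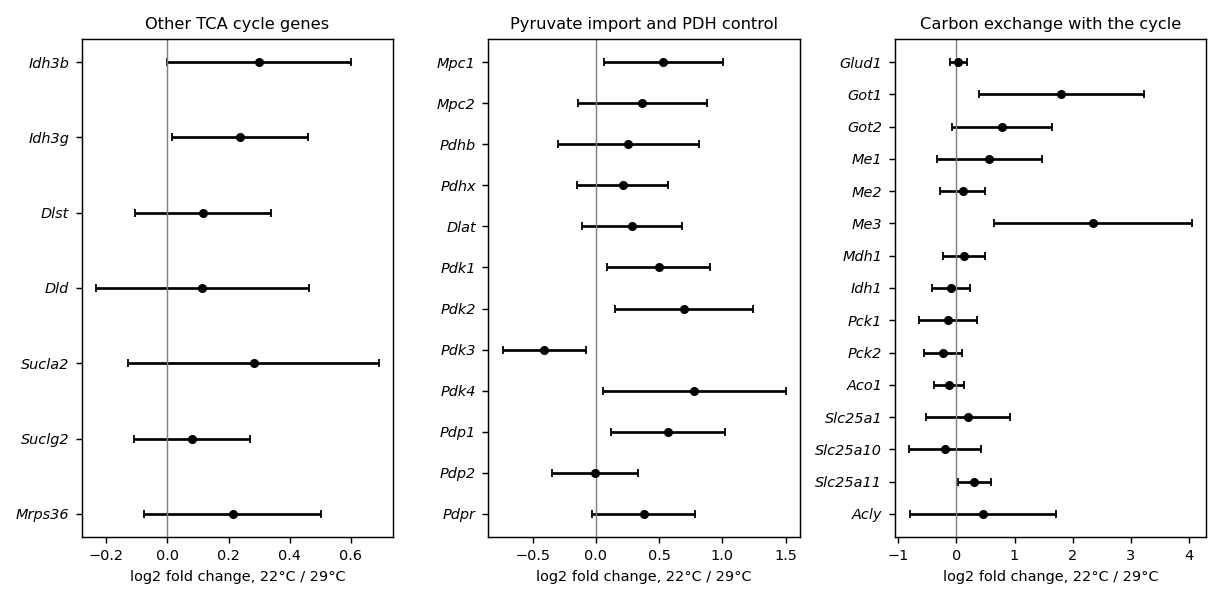
Log2 fold change at 22°C relative to 29°C (x axes, which differ in range; bars are 95% intervals, edgeR, 13 libraries) of 7 other TCA cycle genes, 12 genes of pyruvate import and PDH control, and 15 genes that exchange carbon with the cycle. None passed P-adj below 0.1; *Got1* and *Me3* lie farthest to the right, with log2 fold changes of 1.81 and 2.35 and wide intervals.

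Carbon also enters and leaves the cycle by other routes, and 15 genes for these were listed as *Glud1*, *Got1*, *Got2*, *Me1*, *Me2*, *Me3*, *Mdh1*, *Idh1*, *Pck1*, *Pck2*, *Aco1*, *Slc25a1*, *Slc25a10*, *Slc25a11* and *Acly*. None of the 15 passed in edgeR, 10 had higher fitted levels at 22°C (9 when scaled by totals alone), and the median log2FC was 0.13. Without 22°C replicates 1 and 7, 8 of 15 were higher and the median was 0.0080. *Glud1*, glutamate dehydrogenase, named after its values were seen, had a log2FC of 0.034 (SE 0.065), and of -0.019 when libraries were scaled by totals alone. *Got1*, cytosolic aspartate aminotransferase, was between 8.65 and 139 CPM at 22°C (median 18.2) and between 7.41 and 19.9 CPM at 29°C (median 10.5). *Me3*, a mitochondrial malic enzyme, was between 1.53 and 35.0 CPM at 22°C (median 3.46) and between 0.968 and 3.45 CPM at 29°C (median 2.01). Both were highest in 22°C replicates 7 and 1, and DESeq2 called both (P-adj = 0.0774 and 0.0440), for which they are named here after their values were seen. Without these 2 libraries their log2FC values were 0.36 and 0.69, and with the muscle score as a covariate 0.06 and 0.18.

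*Pck1*, *Me1* and *Acly*, which serve glyceride glycerol synthesis, NADPH supply and the release of acetyl-CoA from citrate, were the most abundant of the 15 on average. *Pck1* was between 987 and 2207 CPM at 22°C and between 827 and 2286 CPM at 29°C, with a log2FC of -0.14 (SE 0.23; P-adj = 0.788). *Me1* was between 283 and 1494 CPM at 22°C and between 198 and 925 CPM at 29°C. *Acly* was between 178 and 1692 CPM at 22°C and between 142 and 1058 CPM at 29°C. The highest level of both genes was in 22°C replicate 1 and the next in 29°C replicate 6, 1 library of each temperature, and neither passed (log2FC 0.56 and 0.46, P-adj = 0.503 and 0.718, edgeR). For *Me1*, the log2FC was 0.17 without 22°C replicate 1, 0.16 without 22°C replicates 1 and 7, and 0.98 without 29°C replicate 6.

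Markers of other cells were counted in the same libraries. Fitted levels were higher at 22°C for 4 of 12 white adipocyte markers, with 1 called lower. They were higher for 8 of 11 tested brown and beige fat markers and lower for 3, with a lowest log2FC of -0.61. Of the 11, 3 were called. These were *Cidea*, *Cox8b* and *Otop1* (log2FC 2.51, 2.27 and 2.92, P-adj = 0.0199, 0.0827 and 0.0596, edgeR). For lymphocyte markers, 7 of 7 tested were higher, with log2FC from 0.0024 to 1.78. Of these, 1 was called, *Cd3e*, which had between 2 and 48 counts per library. Fitted levels were higher for 3 of 8 macrophage, 2 of 6 endothelial and 0 of 6 blood markers, with 0 called. Over all genes tested, 51.6% were higher at 22°C and 1.94% were called (0.731% higher and 1.21% lower). Brown and beige markers summed to between 88.3 and 388 CPM at 22°C and between 72.0 and 110 CPM at 29°C, with the 2 highest sums in 22°C replicates 1 and 7. These 2 libraries also had the 2 largest muscle marker shares, and the part of muscle in the sums was not tested. Fold changes of the 3 called brown and beige markers are not given without them. The part of these cell types in the levels of the 9 genes was not tested.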

How the data were processed

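The authors aligned reads of 13 gluteal WAT libraries with STAR 2.7.5a to GRCm39, per the submitters' processing notes, counted them with featureCounts and deposited raw counts of 34419 genes. A second table deposited by the authors holds DESeq2's regularized log2 expression, used here in 1 alternative. Annotation and strand setting are not given in the sources used here. Symbols were matched by identifier (34006 genes). The annotation at hand is of GRCm38, so no gene coordinates are given beyond those of the RefSeq promoters (GRCm38.p6). Here counts were tested with edgeR 4.0.16 in R 4.3.3 (TMM, filterByExpr, quasi-likelihood, Benjamini-Hochberg over 17779 genes, no covariate), log2 CPM used a prior count of 2, and genes with P-adj below 0.1 are called. No 2 libraries were duplicates (lowest chi-square per gene 15.5 over 78 pairs). Alternatives used DESeq2 1.42.0, limma 3.58.1, other scalings, filters and sets of libraries. Scripts were tested on simulated counts. The 9 genes and all lists were chosen with earlier results of these data known. The named genes are the 9, *Pdk2*, *Pdk4*, *Mpc1*, *Mpc2* and the 5 that covary most with the 9. The 3 most abundant of each other pathway list and of the white adipocyte and muscle markers are also named. *Pdk3*, *Pdp1*, *Got1*, *Me3*, *Glud1*, *Ucp1*, *Cidea*, *Cox8b*, *Otop1* and *Cd3e* fall outside this rule and were named after their values were seen. Some listed genes are not reported here. P-values set a difference or a correlation against the spread between these mice, and edgeR draws on all genes to estimate it.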

Additional observations from a re-analysis of the deposited data

Results flagged for a closer look

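In 6 groups of values, 1 library lay far from the others. This means that its gap to the next library, divided by the range of the group, was above Dixon's critical value for the group size. In all, 60 groups were examined (26 genes and 4 ratios at each temperature). Chance alone sets apart about 1 in 20 where groups are independent and normally spread. Here the groups share libraries and many of the genes varied together, so the 6 cannot be set against that rate. At 29°C, replicate 6 was apart for *Pcx* at 2319 CPM, with the next library at 1207 CPM, and for *Me1* at 925 CPM, with the next at 393 CPM. At 22°C, replicate 1 was apart for *Acly* at 1692 CPM (next 600 CPM), *Me1* at 1494 CPM (next 651 CPM), *Pdhb* at 347 CPM (next 211 CPM) and *Mpc1* at 221 CPM (next 144 CPM). These values therefore came from 2 libraries, 1 of each temperature, which had muscle marker shares of 0.0162% and 6.98% of counts.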

How the results depend on the processing

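In each alternative run, and in each fit that left out 1 mouse, 0 of the 9 genes passed. The count over all genes, 345, was 148 when scaled by totals alone, 42 without a filter, 41 with the muscle score as a covariate, 8 in the libraries with higher totals, 40 at P-adj below 0.05 and 1676 in DESeq2, where 3 genes of pyruvate import and PDH control and 2 of carbon exchange also passed. Leaving out single mice gave 32 (without 29°C replicate 3) to 652 genes (without 22°C replicate 6), and the nearest to 345 was 277 (without 22°C replicate 2). The fitted sign of *Pcx* was not stable. It was -0.051 when scaled by totals alone, -0.00080 without muscle genes, -0.0085 without a filter, -0.032 in the libraries with higher totals, -0.0026 in DESeq2, and -0.13 to 0.30 without single mice. Without 22°C replicates 1 and 7, log2 fold changes were -0.11 for *Pcx*, -0.061 for *Suclg1*, -0.094 for *Fh1*, -0.014 for *Pdha1*, -0.0021 for *Pdhb* and -0.32 for *Acly*. Scaled by totals alone, *Glud1* was -0.019. *Pck1* was 0.043 with the muscle score as a covariate, and the *Pdk4* to *Pdha1* ratio was -0.023 in the libraries with higher totals. Without single mice, *Acly* ran from -0.13 to 1.01, *Glud1* from -0.0016 to 0.066, the *Ogdh* to *Cs* ratio from -0.10 to 0.011, the *Idh2* to *Idh3a* ratio from -0.73 to -0.44 (-0.92 in the libraries with higher totals), and the median of the 9 from 0.087 to 0.30. The cause of these changes was not tested.

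With the replicate number as a block, 214 genes passed and the median of the 9 was 0.13. Deviations of same-numbered libraries correlated with r between 0.05 and 0.51, and 2 of 6 libraries at 29°C correlated best with their own number, so the numbers were not taken to pair the mice.

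Limits follow from the design. The cluster with lower totals held mice of 1 temperature, so total and temperature cannot be told apart there. For *Idh3a*, the 95% interval of the fold ran from 0.942 to 1.90.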
